A study of Homo sapiens with 6 samples.

Results

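EMT transcription factors repress epithelial genes and activate mesenchymal ones. Here 10 genes were followed: ZEB1, ZEB2, SNAI1, SNAI2, TWIST1, TWIST2 and PRRX1, which drive the epithelial-mesenchymal transition (EMT), OVOL1 and OVOL2, which oppose it, and VIM, which encodes the mesenchymal intermediate filament protein vimentin. They were taken by gene symbol from a table of 37887 genes. When an shRNA against MUC1 was induced, ZEB2, ZEB1, VIM and PRRX1 fell and SNAI2 and SNAI1 rose. TWIST1, TWIST2 and OVOL2 did not pass the test, and OVOL1 had no counts.

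RNA-seq counts came from MDA-MB-436 cells, an established triple-negative breast cancer line, all of which stably carried a tetracycline-inducible MUC1 shRNA vector. The control group was 3 cultures given 0.1% DMSO as vehicle, and the shMUC1 group was 3 cultures given 500 ng/ml doxycycline. Some sample titles name a control shRNA, but the treatment label of those samples is DMSO, and they are called control throughout. Every shMUC1 culture, and no control culture, received doxycycline, so doxycycline itself, expression of the hairpin and the fall of MUC1 cannot be told apart. The data are from 1 cell line and 1 inducible construct. The methods describe replicate cultures without saying whether they were set up independently, so p-values cover only the spread between these samples, which may be technical. The libraries held from 18678307 to 27825546 counts, and no library stood apart from its group. Levels are counts per 1000000 counts (CPM), scaled with edgeR's TMM factors. A gene was said to rise or fall when its edgeR quasi-likelihood p-value, adjusted over 15355 tested genes, was under 0.05.

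ZEB1 and ZEB2 are zinc-finger proteins that bind E-box DNA words and recruit corepressors to epithelial genes, and the miR-200 microRNAs repress both in epithelial cells. SNAI1 (Snail) and SNAI2 (Slug) are zinc-finger repressors of the same kind of word. TWIST1 and TWIST2 are basic helix-loop-helix factors and PRRX1 is a homeobox factor. In breast cancer, basal and mesenchymal lines such as MDA-MB-436 usually carry more vimentin and ZEB mRNA than luminal lines.

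MUC1, the gene targeted by the shRNA, had 93, 84 and 102 counts in the control libraries and 72, 51 and 34 in the shMUC1 libraries. The groups did not overlap, with means (± SD of 3 libraries) of 3.88 ± 0.401 and 2.14 ± 0.412 CPM, and edgeR put the log2 change at -0.84 (SE 0.214, adjusted p 0.00119). Among markers of other cell types or breast subtypes, the T-cell gene CD3E and the fibroblast genes DCN and LUM were at 0 in every library, and estrogen receptor ESR1 had at most 12 counts. The leukocyte gene PTPRC was higher in shMUC1, at 2 to 24 counts per library, and the endothelial gene PECAM1 lower, at 4 to 40 counts. Of the 13 such markers, 4 could be tested. Most of the summed level was ERBB2, a breast subtype marker that fell from 44.7 ± 2.41 to 39.0 ± 0.463 CPM (mean ± SD, n = 3), a log2 change of -0.20 (edgeR adjusted p 0.0074), and the sum of all 13 ran from 46.3 to 51.3 CPM in control and from 41.4 to 42.1 CPM in shMUC1. Their part in the results below was not tested. In bulk RNA, fewer cells of a type and less RNA per cell cannot be told apart.

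Of the 10 genes, 9 could be tested. Of these, 4 were lower, where 23.6% of all tested genes were, and 2 were higher, where 25.2% of all tested genes were. Their median log2 fold change was -0.17, beside 0.0006 over all tested genes. The same 6 genes had no overlap between the groups in CPM, 4 lower and 2 higher, against 26.8% and 28.1% of all tested genes. With a further bound of a fold change over 2, ZEB2 alone was lower and SNAI2 alone was higher, where 3.74% and 2.21% of all tested genes were. With 48.7% of all tested genes changed and 9 genes here, these counts describe the genes and mark nothing particular to them.

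ZEB2 is encoded at chr2:144364364-144524583 on the minus strand and ZEB1 at chr10:31318495-31529814 on the plus strand (GENCODE 29 annotation, GRCh38). In their 3′ untranslated regions (UTRs), both genes held the word TCAGTA, which an earlier scan of these same counts had tied to lower values in shMUC1 and which was therefore known when these genes were looked at. TCAGTA occurred 5 times in the ZEB1 3′ UTR of 2549 bases and 4 times in the ZEB2 3′ UTR of 5370 bases. None of the 8 other genes held it. PRRX1, which fell, lacks it across a 3′ UTR of 3233 bases, and OVOL1 across 1878. The rest have short 3′ UTRs, from 322 bases in VIM to 1203 in SNAI2, under the median of 1396 bases over tested genes. Their lack of the word therefore says little. All 9 occurrences read TCAGTATT, so that each one overlaps CAGTATT, the site word for the seed (bases 2 to 8) of miR-200b, miR-200c and miR-429. The 3 microRNAs are shown with that shared seed in capitals, as RefSeq gives them (GRCh38.p14).
hsa-miR-200b-3p: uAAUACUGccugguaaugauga
hsa-miR-200c-3p: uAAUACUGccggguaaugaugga
hsa-miR-429: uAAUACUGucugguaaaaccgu

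The 9 stretches of ZEB1 and ZEB2 mRNA are shown because they carry both words. They are 30 bases each, written 5′ to 3′ on the transcript strand from GENCODE 29 on GRCh38, with the 8 shared bases in capitals.
ZEB1 chr10:31527621-31527650, plus strand: gttttatcttaTCAGTATTatcactcttat
ZEB1 chr10:31527715-31527744, plus strand: ctaaatccgctTCAGTATTttattatgttt
ZEB1 chr10:31528144-31528173, plus strand: agtgccatttcTCAGTATTttcaaggctct
ZEB1 chr10:31528495-31528524, plus strand: atttttacctaTCAGTATTattttatttct
ZEB1 chr10:31529216-31529245, plus strand: tttcatcattaTCAGTATTttctttggaaa
ZEB2 chr2:144389042-144389071, minus strand: actaccatacaTCAGTATTtttattattat
ZEB2 chr2:144388979-144389008, minus strand: actacaatgcaTCAGTATTatgattcctct
ZEB2 chr2:144388621-144388650, minus strand: aagcacccatgTCAGTATTagaagaatagg
ZEB2 chr2:144388536-144388565, minus strand: cattaattttgTCAGTATTacaccaaactg

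Among 13004 tested genes with an annotated 3′ UTR, 35.2% held TCAGTA, 19.5% held CAGTATT and 7.71% held TCAGTATT. TCAGTA was part of TCAGTATT in 14.1% of its occurrences over all these genes, and in all 9 of those in ZEB1 and ZEB2. The longer word ATCAGTA occurred 3 times in ZEB1, 2 times in ZEB2 and 1 time in the 3′ UTR of MUC1, and 11.4% of these genes held it. Genes with 4 or more TCAGTA words made up 2.42% of the total. The median 3′ UTR had 1396 bases, and those of ZEB1 and ZEB2 were longer. A further site word without TCAGTA lay in each of ZEB1, ZEB2 and SNAI2. Of all 13004 genes, 25.02% fell and 27.95% rose, and their median change was 0.01 on the log2 scale. Because TCAGTA was picked from these same counts for lower values, the shares of its holders restate that choice and support nothing. Thus 40.0% of the 1002 genes with TCAGTATT were lower in shMUC1, with a median log2 fold change of -0.09, and 32.9% of the 3570 with TCAGTA outside that word were lower, with a median of -0.03. Of 8432 genes without TCAGTA, 19.9% were lower, with a median of 0.04. Of 1529 genes with CAGTATT but no TCAGTATT, 30.3% were lower and 29.6% higher. Genes with TCAGTA elsewhere in the 3′ UTR were not taken out of that set, so it can overlap the set of 3570. None of these shares was matched for 3′ UTR length. Only 3 of these genes held 4 or more TCAGTATT words. They were ZEB1, ZEB2 and EIF4E3, which encodes a cap-binding protein and did not pass the test, at a log2 fold change of -0.12 (edgeR adjusted p 0.106). The part of either word in the fall of ZEB1 and ZEB2 was not tested.

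**Figure D1:**
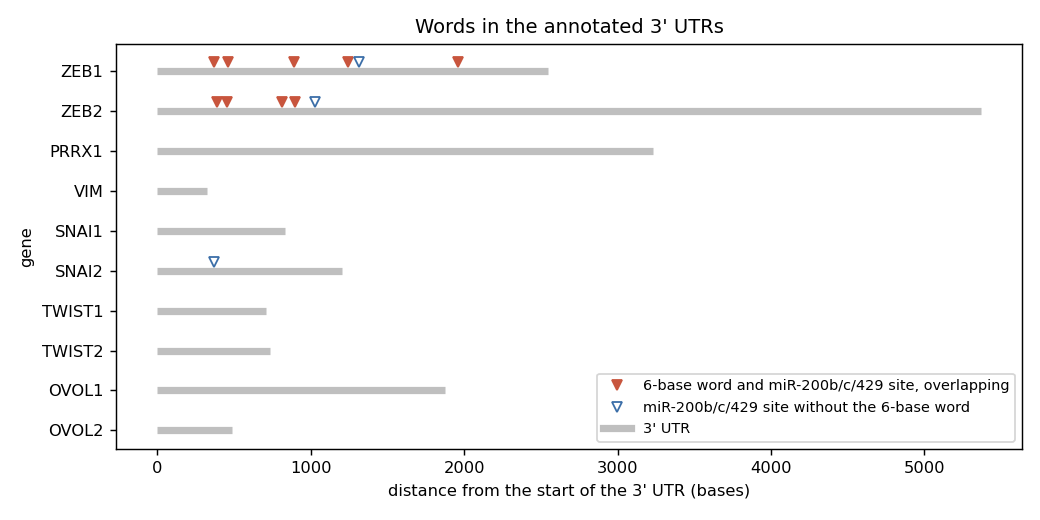
Grey bars are the annotated 3′ UTRs of the 10 genes, drawn by distance from the UTR start in bases. Filled triangles mark the overlapping pair of words, 5 in ZEB1 and 4 in ZEB2, and open triangles mark site words of miR-200b, miR-200c and miR-429 alone, 1 each in ZEB1, ZEB2 and SNAI2.

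The microRNAs themselves are not measured by a poly(A) library. Their gene rows MIR200A, MIR200B, MIR200C, MIR141 and MIR429 were at 0 in all 6 libraries, and MIR200CHG, the host transcript of miR-200c and miR-141, had at most 2 counts in any library. MIR205, which encodes a further microRNA that represses ZEB1 and ZEB2, was also at 0. Its site word ATGAAGG occurred 1 time in the ZEB1 3′ UTR and not in that of ZEB2, and 13.6% of the 13004 genes held it. CAGTGTT, the site word of miR-200a and miR-141, occurred 3 times in ZEB1 and 4 times in ZEB2, and 21.8% of those genes held it. These words are not drawn in the map of 3′ UTRs.

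ZEB2 fell furthest of the 9 tested genes. Its level was 160.1, 165.9 and 156.1 CPM in control and 47.0, 45.3 and 43.4 CPM in shMUC1. Every shMUC1 library lay far below every control library. The means (± SD of 3 libraries) were 160.7 ± 4.92 and 45.2 ± 1.77 CPM. edgeR put the log2 change at -1.83 (SE 0.0452, adjusted p 4.16e-28). Only 0.645% of tested genes fell further. Across 12212 genes, the one whose mean-centred log2 CPM was nearest to that of ZEB2 over the 6 libraries was SHISAL1, with a root mean square difference of 0.04, followed by SLC43A1 at 0.071.

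ZEB1 was at 35.5, 37.2 and 32.4 CPM in control and at 17.3, 18.2 and 18.3 CPM in shMUC1. Its groups were also wide apart. The means (± SD of 3 libraries) were 35.1 ± 2.43 and 17.9 ± 0.584 CPM. edgeR put the log2 change at -0.97 (SE 0.0777, adjusted p 3.71e-13). That is just short of a fold change of 2, and without the third control library it was -1.04, just past it. The 95% interval ran from -1.13 to -0.81, and that of ZEB2, which fell further, from -1.92 to -1.73. HTR1D and CADM1 had the patterns nearest to ZEB1, at root mean square differences of 0.037 and 0.043.

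The ratio of ZEB1 to ZEB2 counts within a library does not depend on library scaling. On the log2 scale it was -2.17, -2.16 and -2.27 in control and -1.44, -1.31 and -1.245 in shMUC1. The ratio was higher in all 3 shMUC1 libraries, with no overlap. The means rose from -2.20 ± 0.0598 to -1.33 ± 0.101 (SD, n = 3 each), a difference of 0.86, with p = 0.1 in a two-sided exact permutation test, the smallest value that 3 against 3 libraries allow, and 0.15 after adjustment over 3 paralog pairs. In linear terms the ratio of counts was 0.218 in control and 0.397 in shMUC1.

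Antisense transcripts lie beside both genes. ZEB1-AS1 shares 366 exon bases with ZEB1 on the opposite strand and ZEB2-AS1 shares 1299 with ZEB2. The library kit keeps strand, but no source used here gives the strand setting of the counting. ZEB1-AS1 rose where ZEB1 fell, from 3.47 ± 0.237 to 4.82 ± 0.247 CPM (mean ± SD, n = 3), or 0.47 on the log2 scale (SE 0.173, edgeR adjusted p 0.0217). ZEB2-AS1 had 2 to 8 counts per library and was not tested. Of 14 rows of non-coding neighbours and microRNA hosts, 2 could be tested and both were higher, where 25.2% of all tested genes were. So few tested rows mark nothing particular to them. Beside ZEB1-AS1, the other tested row, SNAI3-AS1, rose from 8.17 ± 0.317 to 10.3 ± 1.84 CPM (mean ± SD, n = 3), a log2 change of 0.33 (edgeR adjusted p 0.0282).

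VIM, at chr10:17228259-17237593 on the plus strand, was the most abundant of the 10 genes. It was at 717.8, 744 and 691.9 CPM in control and at 411, 444.6 and 395.1 CPM in shMUC1. All 3 shMUC1 libraries were lower than all 3 controls. The means (± SD of 3 libraries) were 717.9 ± 26.0 and 417.1 ± 25.2 CPM. edgeR put the log2 change at -0.78 (SE 0.0349, adjusted p 2.10e-20). Vimentin mRNA remained high after the fall. Per transcript length, its level in counts per kilobase of transcript per 1000000 counts (RPKM) lay above 99.3% of tested genes in control and above 98.5% in shMUC1. ZDHHC21 and B4GALNT1 had the patterns nearest to VIM, at root mean square differences of 0.023 and 0.034. VIM-AS1, which shares 641 exon bases with VIM on the opposite strand, had 6 to 29 counts per library and a log2 fold change of -0.07 (SE 0.433, edgeR adjusted p 0.909).

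PRRX1, at chr1:170662728-170739419 on the plus strand, was at 13.7, 12.6 and 14.6 CPM in control and at 9.08, 10.9 and 8.49 CPM in shMUC1. The groups were close but did not overlap. The means (± SD of 3 libraries) were 13.6 ± 1.02 and 9.48 ± 1.239 CPM. edgeR put the log2 change at -0.52 (SE 0.113, adjusted p 0.00022). POGLUT2 and STARD8 had the nearest patterns, at root mean square differences of 0.059 and 0.062. PRRX2, its paralog, named after its counts were seen, had at most 2 counts in any library.

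**Figure D2:**
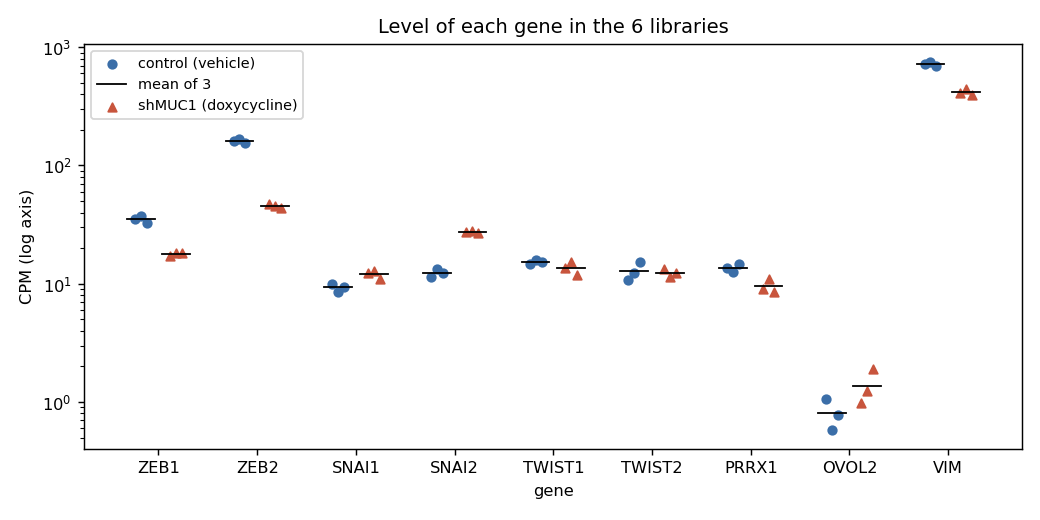
Points are the level of each gene in CPM, on a log axis, in the 3 control libraries (circles) and the 3 shMUC1 libraries (triangles), with black lines at the means. ZEB1, ZEB2, PRRX1 and VIM are lower and SNAI1 and SNAI2 higher in every shMUC1 library, and OVOL1 is not drawn because it had no counts.

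The SNAI genes moved the other way from the ZEB genes. SNAI2, at chr8:48917604-48921740 on the minus strand, was at 11.5, 13.4 and 12.2 CPM in control and at 27.4, 28.2 and 26.7 CPM in shMUC1. The shMUC1 libraries were tightly grouped above the controls. The means (± SD of 3 libraries) were 12.4 ± 0.974 and 27.4 ± 0.746 CPM. edgeR put the log2 change at 1.14 (SE 0.0879, adjusted p 1.16e-13). Only 1.73% of tested genes rose further. CCND2 and DBT had the patterns nearest to SNAI2, at root mean square differences of 0.032 and 0.044.

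SNAI1, at chr20:49982999-49988886 on the plus strand, was at 10.03, 8.54 and 9.29 CPM in control and at 12.3, 12.8 and 10.9 CPM in shMUC1. The rise was small, and the lowest shMUC1 library lay just above the highest control library. The means (± SD of 3 libraries) were 9.29 ± 0.748 and 12.0 ± 1.01 CPM. edgeR put the log2 change at 0.37 (SE 0.114, adjusted p 0.00632). PLD1 and SMAD1 were the nearest in pattern, at root mean square differences of 0.024 and 0.031.

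The log2 ratio of SNAI1 to SNAI2 counts was -0.20, -0.65 and -0.40 in control and -1.16, -1.14 and -1.30 in shMUC1. Each shMUC1 library was below each control library. The means went from -0.42 ± 0.229 to -1.20 ± 0.0871 (SD, n = 3 each), a difference of -0.78, with p = 0.1 in a two-sided exact permutation test and 0.15 after adjustment over the 3 pairs. SNAI3, a further family member with 6 to 52 counts per library, was lower, by a log2 change of -1.09 (SE 0.38, edgeR adjusted p 0.0164).

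TWIST1, at chr7:19020991-19117672 on the minus strand, was at 14.7, 15.97 and 15.2 CPM in control and at 13.5, 15.3 and 11.8 CPM in shMUC1. The highest shMUC1 library lay within the control range. TWIST1 shares 141 exon bases with an antisense gene, AC003986.2. Its log2 fold change was -0.17 with a 95% interval from -0.38 to 0.04 (edgeR adjusted p 0.175). The value was -0.09 without the third shMUC1 library and -0.27 without the second (adjusted p 0.553 and 0.0573). UST and ZNF140 had the nearest patterns, both at a root mean square difference of 0.031 to 0.032.

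TWIST2, at chr2:238848032-238910543 on the plus strand, was at 10.7, 12.3 and 15.3 CPM in control and at 13.2, 11.4 and 12.4 CPM in shMUC1. All 3 shMUC1 values lay inside the control range. The log2 fold change was -0.05 with a 95% interval from -0.29 to 0.18 (edgeR adjusted p 0.732), and it turned positive in 3 alternatives. FAT4 and POC1A had the nearest patterns, at root mean square differences of 0.049 and 0.056. The log2 ratio of TWIST1 to TWIST2 counts averaged 0.27 ± 0.251 in control and 0.13 ± 0.259 in shMUC1 (SD, n = 3 each), with p = 0.5 in a two-sided exact permutation test. The difference of the mean ratios ran from -0.29 to -0.05 with 1 library left out.

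**Figure D3:**
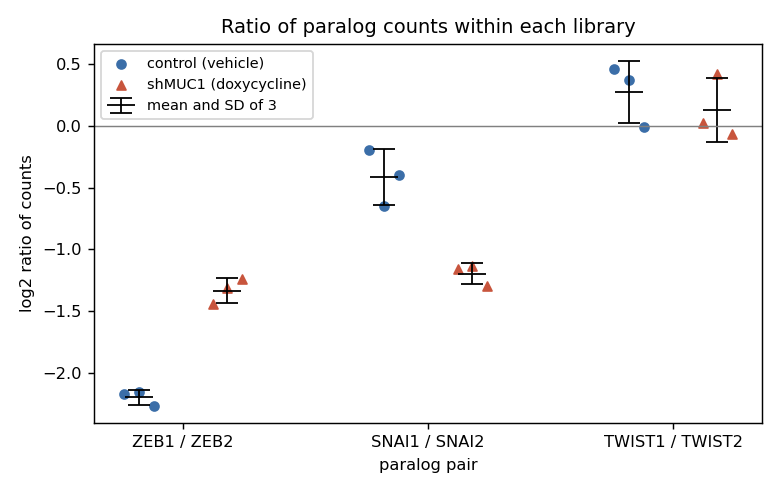
Points are the log2 ratio of the counts of 2 paralogs within each library, for control (circles) and shMUC1 (triangles), with the mean and SD of 3 in black. The groups are separate for ZEB1 over ZEB2, at -2.20 against -1.33, and for SNAI1 over SNAI2, at -0.42 against -1.20, and overlap for TWIST1 over TWIST2.

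OVOL1 and OVOL2 are zinc-finger repressors that oppose ZEB1 in epithelial cells. OVOL1, at chr11:65787022-65797219 on the plus strand, had 0 counts in each of the 6 libraries. A floor of 3 counts per library leaves room for a level of up to 0.109 to 0.161 CPM. That bound takes counts as independent. Between 68.8% and 70.5% of counts from 1 to 20 per library were even, so it may be too low. OVOL1 shares 1044 exon bases, 27.1% of its exons, with the antisense gene AP001266.1, and the strand setting of the counting is not given. OVOL2, at chr20:17956979-18059188 on the minus strand, had 23, 14 and 20 counts in control and 27, 32 and 35 in shMUC1, or 1.05, 0.575 and 0.774 CPM against 0.977, 1.243 and 1.88 CPM. The lowest shMUC1 library lay under the highest control library. The log2 fold change was 0.75 with a 95% interval from -0.01 to 1.52 (edgeR adjusted p 0.0987). Without the third shMUC1 library it was 0.48 (adjusted p 0.386), and with any 1 library left out it was at most 0.98. OVOL2 shares 59 exon bases, 2.71% of its exons, with SNX5 on the same strand.

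**Figure D4:**
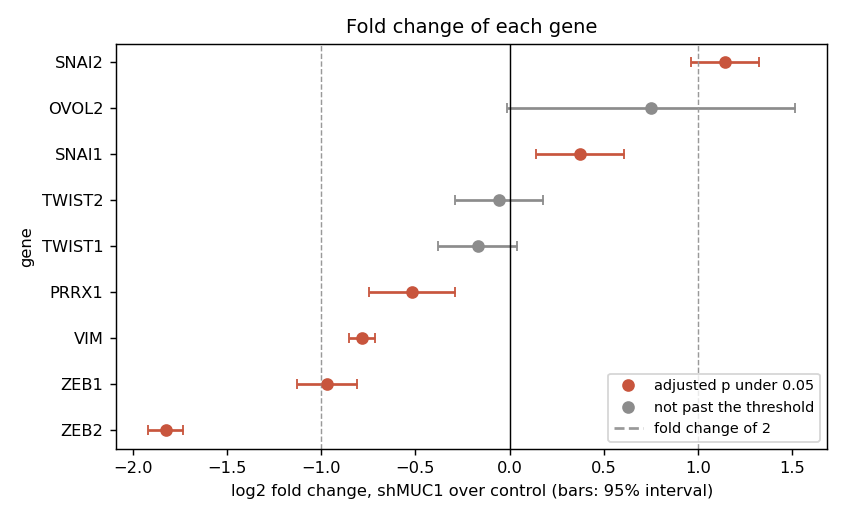
Points are the log2 fold change of shMUC1 over control for the 9 tested genes, with 95% intervals as bars, and dashed lines mark a fold change of 2. ZEB2 at -1.83 and SNAI2 at 1.14 lie past a fold change of 2, and the intervals of TWIST1, TWIST2 and OVOL2 cross 0.

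Levels of different genes were compared per length of the principal transcript. In control, VIM was at 336 ± 12.2 RPKM, ZEB2 at 16.8 ± 0.516, TWIST1 at 9.18 ± 0.376 and TWIST2 at 9.10 ± 1.65 (SD, n = 3 each). ZEB1 followed at 6.47 ± 0.448 RPKM, SNAI1 at 5.51 ± 0.443, SNAI2 at 5.10 ± 0.401, PRRX1 at 3.18 ± 0.237 and OVOL2 at 0.514 ± 0.153. Among neighbours in that order, the ranges of TWIST1 and TWIST2 overlapped, as did those of SNAI1 and SNAI2.

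In shMUC1 the order was different. VIM stayed first at 195.4 ± 11.8 RPKM, but SNAI2 came next at 11.3 ± 0.307, ahead of TWIST2 at 8.79 ± 0.652, TWIST1 at 8.12 ± 1.04 and SNAI1 at 7.11 ± 0.599 (SD, n = 3 each). ZEB2 was sixth at 4.74 ± 0.186 RPKM and ZEB1 at 3.31 ± 0.108, followed by PRRX1 at 2.21 ± 0.289 and OVOL2 at 0.879 ± 0.299. The ranges of TWIST2 and TWIST1 overlapped, as did those of TWIST1 and SNAI1. The EMT factor with the highest level was thus ZEB2 in control and SNAI2 in shMUC1. The place of ZEB2 depends on the length used. Over all exons of a gene merged, an alternative chosen after seeing the data, ZEB2 in control was at 6.41 RPKM, below TWIST1 at 7.52 and TWIST2 at 6.80, while SNAI2 remained the highest EMT factor in shMUC1, at 8.08 against 6.65 for TWIST1, 6.57 for TWIST2 and 7.11 for SNAI1.

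Genes that work beside these factors were read from lists made with earlier results of these counts known. Beside the list counts, 25.2% of all tested genes rose and 23.6% fell. Of 14 tested EMT-inducing factors outside the 10 genes, 8 fell (57.1%) and 3 rose (21.4%), with a median log2 fold change of -0.31. Among those with a mean of at least 50 counts the number lower was 5 and the median was 0.006. FOXC2, FOXQ1 and SNAI3, named here after their values were seen, are the 3 lower genes under that bound. ETS1, an ETS-family activator, fell from 125.9 ± 4.17 to 75.3 ± 2.07 CPM (mean ± SD, n = 3), a log2 change of -0.74. The E-proteins TCF4 and TCF12, partners of TWIST proteins, fell with log2 fold changes of -0.61 and -0.50, and RUNX2 fell with -0.36. HMGA2, an architectural chromatin factor, rose from 61.6 ± 1.35 to 75.1 ± 2.24 CPM (mean ± SD, n = 3), and LEF1 and SOX9 rose with log2 fold changes of 0.26 and 0.18.

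Of 22 cofactors and turnover factors, all tested, 4 rose (18.2%) and 6 fell (27.3%), with a median of -0.02. With 25.2% of all tested genes higher and 23.6% lower, these counts mark nothing particular to the list. CTBP1, a corepressor bound by ZEB proteins, fell from 77.6 ± 5.003 to 43.1 ± 4.11 CPM (mean ± SD, n = 3), or -0.84 on the log2 scale (SE 0.06, edgeR adjusted p 1.54e-14). CTBP2, its paralog, was at -0.04 (adjusted p 0.54). The methyltransferase EHMT2, the H3K36 methyltransferase NSD2 and the LIM protein AJUBA, which binds SNAI proteins, fell with log2 fold changes of -0.50, -0.27 and -0.26. PAK1, a kinase that phosphorylates SNAI1, rose with 0.50, and the deacetylases HDAC1 and HDAC2 and the corepressor RCOR1 rose with 0.21, 0.14 and 0.17.

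Upstream signals were mixed, with 8 of 21 tested genes higher (38.1%), 7 lower (33.3%) and a median of -0.03. The shares of all tested genes were 25.2% higher and 23.6% lower. Within the TGF-β pathway, the receptor TGFBR2 rose from 116.4 ± 4.69 to 231 ± 18.4 CPM (mean ± SD, n = 3), a log2 change of 0.99 (SE 0.0441), while its partner TGFBR1 fell from 148.4 ± 1.79 to 89.9 ± 2.96 CPM, a log2 fold change of -0.72 (SE 0.0406). The ligand TGFB1 fell with -0.58 and the signal transducer SMAD2 with -0.52. The inhibitory helix-loop-helix gene ID1 rose from 12.8 ± 0.719 to 23.3 ± 0.24 CPM (mean ± SD, n = 3), a log2 change of 0.86. The Notch ligand JAG1 and the ligand WNT5A rose with log2 fold changes of 0.50 and 0.53, and the receptor NOTCH1 fell with -0.85.

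Of 29 tested mesenchymal genes, 16 fell (55.2%, against 23.6% of all tested genes) and 5 rose (17.2%, against 25.2%), with a median of -0.22. COL3A1, a fibrillar collagen chain, fell from 6.28 ± 1.06 to 1.75 ± 0.224 CPM (mean ± SD, n = 3), a log2 change of -1.82. NT5E, which encodes the surface enzyme CD73, fell from 397 ± 13.2 to 176.8 ± 10.97 CPM, a log2 fold change of -1.16. COL6A1 and the matrix protease MMP2 fell with -1.12 and -0.93. Against that, fibronectin FN1 rose from 962.4 ± 17.7 to 1285 ± 11.4 CPM (mean ± SD, n = 3), a log2 change of 0.42, and ACTA2, TNC and LOXL2 rose with 0.59, 0.40 and 0.30.

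Around vimentin itself, 3 of 8 tested partners rose and 2 fell, with a median of 0.03, in a list that also holds VIM-AS1. With 25.2% of all tested genes higher and 23.6% lower, these few counts mark nothing particular to the partners. SYNM, which encodes the intermediate filament protein synemin, fell from 18.8 ± 0.144 to 10.6 ± 0.94 CPM (mean ± SD, n = 3), a log2 change of -0.82 (SE 0.0993). The cytolinker DST fell with -0.39, whereas the cytolinker PLEC rose with 0.19. The nuclear lamins LMNB1 and LMNA rose with 0.17 and 0.10.

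On the epithelial side, 4 of 11 tested fate regulators rose (36.4%, against 25.2% of all tested genes) and 1 fell (9.09%, against 23.6%), with a median of 0.22. Without the third control library that median was 0.36. ELF3, an epithelial ETS factor, rose from 3.35 ± 0.537 to 14.3 ± 1.16 CPM (mean ± SD, n = 3), a log2 change of 2.09. The luminal factor GATA3 rose from 2.32 ± 0.146 to 4.31 ± 0.718 CPM (mean ± SD, n = 3), a log2 change of 0.88. FOXA1 rose with 0.37 (edgeR adjusted p 0.016), its lowest shMUC1 library at 7.92 CPM just above the highest control library at 7.80. KLF4 rose with 0.21. The number of regulators that rose was 3 with DESeq2 and ran from 3 to 5 with a library left out. TFAP2C fell from 157.7 ± 5.25 to 115.3 ± 2.85 CPM, a log2 fold change of -0.45. GRHL2, which represses ZEB1 in epithelial cells, was at 0 in all 6 libraries, while its paralogs GRHL1 and GRHL3 had 68 to 97 and 1 to 18 counts per library. ESRP1, an epithelial splicing factor that ZEB proteins repress, had at most 4 counts in any library, and its paralog ESRP2 had 8 to 32.

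Epithelial junction and surface genes had the median farthest from 0 of these lists. Of 27 tested, 22 rose (81.5%), 15 of them past a fold change of 2, and 2 fell (7.41%), with a median of 1.02. Over all tested genes, 25.2% rose, 2.21% rose past a fold change of 2 and 23.6% fell. The summed level of the list was 1471 to 1487 CPM in control and 2769 to 2834 CPM in shMUC1. The list also holds the keratins KRT7, KRT8, KRT18 and KRT19, which are neither junction nor surface genes. KRT8, at 9516 to 23209 counts per library, and KRT18, at 2867 to 7528, weigh heavily in that sum. MAL2, an apical transport protein, rose from 53.3 ± 1.56 to 369.6 ± 17.6 CPM (mean ± SD, n = 3), a log2 change of 2.79. EPCAM rose with 2.12, CDS1 with 1.67 and the desmosomal gene DSP with 1.46. CLDN3, a tight junction claudin, fell from 3.99 ± 0.864 to 1.61 ± 0.226 CPM (mean ± SD, n = 3), a log2 change of -1.31. The other gene that fell, CLDN4, named here after its value was seen, was at -0.70 with an edgeR adjusted p of 0.0298. Its call was lost without any of 4 libraries (control 1, control 3, shMUC1 2 or shMUC1 3), at adjusted p from 0.0931 to 0.115, and with DESeq2, at 0.0798. A further 12 genes of the list had too few counts to be tested.

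**Figure D5:**
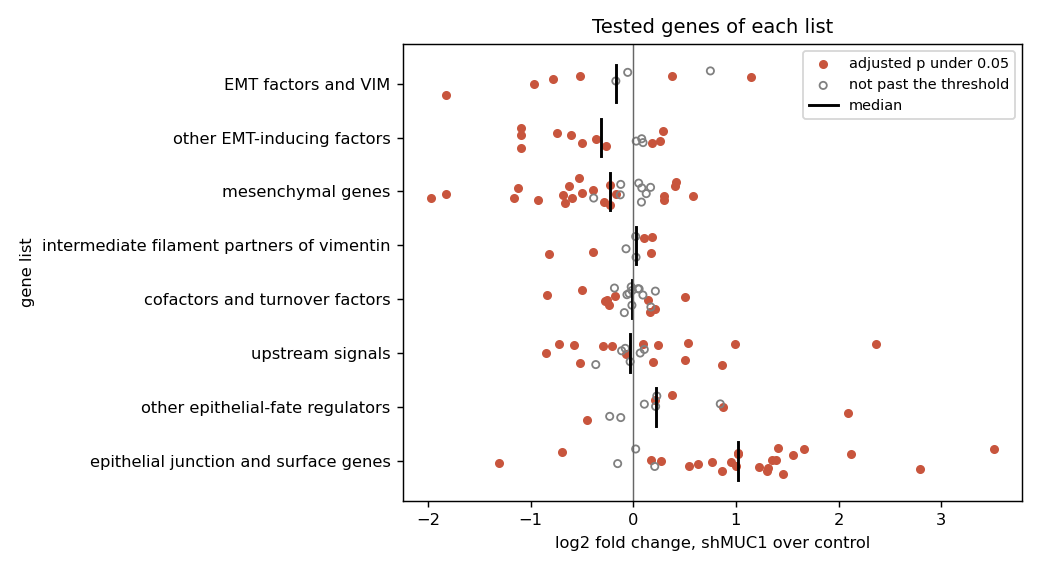
Points are the log2 fold change of shMUC1 over control for the tested genes of each list, filled where the adjusted p is under 0.05, with a black line at the median. The epithelial junction and surface genes sit mostly to the right, with a median of 1.02, and the mesenchymal genes mostly to the left, with a median of -0.22.

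The word bound by ZEB and SNAI proteins, CAGGTG on either strand (CACCTG on the other), was looked for in RefSeq promoter windows of 300 bases, from 250 bases before to 50 after a gene's start (GRCh38.p14). Of all 35116 windows, 20.6% held it, and of 11187 tested genes with a window, 2685 held it in at least 1. Of the 10 genes, 5 had a window, and ZEB1 alone held the word, in 2 of its 7 windows. ZEB2, VIM, PRRX1 and TWIST2 had 1 window each, without it. Of 23 epithelial junction and surface genes with a window, counted whether or not they could be tested, 18 held it, or 78.3%. Among the 13 of them that rose, the number was 10, or 76.9%, close to the share of the whole list. The 13 are part of the 23, so these shares cannot show whether the word sets the rising genes apart. The part of the word in their rise was not tested. The share was 39.8% of the 236 genes with a window that rose past both thresholds, and 25.4% of the 370 that fell past both. A match is not a measurement of binding.

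Promoter windows of CDS1 and DSP, which rose, and CLDN3, which fell, are shown because all 3 hold the word, in capitals, whichever way they moved. In CDS1 it starts at position -27 from the gene's start, in DSP at -178 and -85, and in CLDN3 at 36. Each is written 5′ to 3′ on the gene's strand.
CDS1 chr4:84582877-84583176, plus strand: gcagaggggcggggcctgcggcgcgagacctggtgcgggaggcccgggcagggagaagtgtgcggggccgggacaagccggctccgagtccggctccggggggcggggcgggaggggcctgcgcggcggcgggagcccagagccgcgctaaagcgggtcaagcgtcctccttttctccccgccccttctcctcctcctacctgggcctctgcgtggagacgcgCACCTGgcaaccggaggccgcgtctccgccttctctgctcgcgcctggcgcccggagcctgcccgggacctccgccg
DSP chr6:7541421-7541720, plus strand: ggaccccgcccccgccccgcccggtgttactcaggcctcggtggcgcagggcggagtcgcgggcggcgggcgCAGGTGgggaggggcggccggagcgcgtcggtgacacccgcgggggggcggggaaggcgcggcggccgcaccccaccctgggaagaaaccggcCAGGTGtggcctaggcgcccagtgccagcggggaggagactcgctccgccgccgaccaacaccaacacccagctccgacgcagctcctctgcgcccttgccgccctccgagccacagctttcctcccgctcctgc
CLDN3 chr7:73770221-73770520, minus strand: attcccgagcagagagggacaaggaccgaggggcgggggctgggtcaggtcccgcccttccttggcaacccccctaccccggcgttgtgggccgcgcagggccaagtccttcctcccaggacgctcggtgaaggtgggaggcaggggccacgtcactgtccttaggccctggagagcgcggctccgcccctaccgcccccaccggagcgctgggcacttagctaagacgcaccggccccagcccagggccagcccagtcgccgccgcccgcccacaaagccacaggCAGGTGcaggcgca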

How the data were processed

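RNA was measured in 6 libraries prepared with a strand-specific poly(A) kit. The authors deposited raw counts per gene. The submitters' processing notes list CASAVA 1.8.2, STAR 2.7.9a, featureCounts, DESeq2 1.24.0 and GRCh38.p7. The strand setting of the counting is not given in the sources used here. Of counts from 1 to 20, between 68.8% and 70.5% per library were even, so halved counts were an alternative. Counts were fitted with edgeR 4.0.16 (filterByExpr, TMM, quasi-likelihood) and p-values adjusted by the Benjamini-Hochberg method over 15355 genes. DESeq2 1.42.0 and limma 3.58.1 (voom) were alternatives. The code was tested on simulated data. The 95% intervals come from the edgeR fit and include the spread between libraries, whereas floors cover counting error only. Reads are not independent molecules. RPKM values were computed here from GENCODE 29 transcript lengths. For 3′ UTRs, the longest annotated one of each gene was searched on the transcript strand, for TCAGTA and for the words complementary to microRNA seeds. Replicate numbers did not pair the libraries, with correlations of 0.032, -0.014 and -0.031 between same-numbered libraries.

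The members and lists were chosen with earlier results of these data known. Besides these genes and MUC1, the text names, from each list, up to 4 genes per direction with the largest log2 fold change among those that passed the test, had a mean of at least 50 counts and did not overlap between groups, list genes that overlap a member, and for each member the 2 genes nearest in pattern. Named outside this rule, with their values known, are CTBP2, PRRX2, GRHL1, GRHL2, GRHL3, ESRP1, ESRP2, CLDN4, FOXC2, FOXQ1, SNAI3, EIF4E3 and the keratins. The microRNA genes and the markers of other cell types are also outside it. One gene of the epithelial list is not reported here and was left out of its counts.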

Additional observations from a re-analysis of the deposited data

How the results depend on the processing

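The 9 tested genes gave 143 values under the alternatives, and in 140 neither the direction nor the call changed. The 3 others are TWIST2, which was at 0.0862 without the third control library, at 0.0041 without the second shMUC1 library and at 0.0025 with libraries thinned to the smallest total, so that its values with a library left out ran from -0.16 to 0.0862. It passed the threshold in none of these. In each of 16 alternatives 2 of the genes were higher and 4 lower, with SNAI1 nearest to losing its call, at an adjusted p of at most 0.0401. OVOL2 is not in the stricter filter (a mean of 50 counts or more). With the mean of at least 50 counts, the genes past both thresholds numbered 177 higher and 275 lower, against 339 and 575 in the fit used here, and with a fold change over 1.5 they were 846 and 1280. That lower fold bound took the number of the 10 genes past both from 2 to 4, adding ZEB1 and VIM. With a mean of at least 50 counts, 5 other EMT-inducing factors and 1 epithelial junction gene were lower, since fewer genes are tested, and DESeq2 also gave 1 such epithelial gene. With a library left out, that epithelial count ran from 1 to 2. Over merged exons, a length chosen after seeing the data, the ZEB2 level in control was 1.58 times that of ZEB1, against 2.60 times over the principal transcript. The median of the other epithelial-fate regulators, 0.22, was 0.36 without the third control library and 0.35 with thinned libraries. Without the second control library the medians of the cofactor and upstream lists turned positive, to 0.0028 and 0.0076, and that of the vimentin partners turned negative, to -0.0056, with thinned libraries. With the replicate block, the genes past both thresholds numbered 339 higher and 558 lower, ZEB2 was at -1.83 and SNAI2 at 1.15, and no call among the 10 genes changed. The block is not a pairing, since same-numbered libraries did not deviate together. Depth limits OVOL2 most, with 14 to 35 counts per library, and MUC1, with 34 to 102.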
